A study of Mus musculus with 4 samples.

Results

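Laptm4b, Asprv1, Apol10b, Dnase1l3, Gclc, Smagp and Tm4sf5 are 7 genes whose transcripts were scarce in migratory dendritic cells (DCs) that express an OX40L reporter. They are 7 of the 22631 gene rows of 2 single-cell captures, and were selected on values of these same data: earlier comparisons gave them low levels in BFP+ cells and placed most of them at the head of a cluster read as mature type 1 conventional DCs (cDC1). Their difference between BFP+ and BFP- cells, and their shared detection and link to Irf8, are therefore described here and not tested.

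The cells came from ear-draining lymph nodes of Tnfsf4KI/+ mice, in which a blue fluorescent protein (BFP) reports the gene for OX40L, and were sorted as B220- CD11c-intermediate MHC class II-high migratory DCs. Ears had received MC903, a vitamin D analogue put on the skin, on days 0, 2 and 4, or nothing, and nodes were taken on day 5. The 4 populations were MC903 BFP+, MC903 BFP-, untreated BFP+ and untreated BFP-, with 5000 sorted BFP+ and 7000 sorted BFP- cells loaded per treatment. Each population was 1 pool marked by its own hashtag antibody, so no difference below has a replicate check, and the number and age of the mice are not given in the sources used here. MC903 and untreated cells were captured and sequenced apart, so treatment, capture and lane cannot be told apart.

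cDC1 are DCs that take up dead cells and present their antigens to CD8 T cells, and they need the transcription factor IRF8 to develop and to keep their identity. When they mature and travel to the lymph node they gain CCR7 and shed much of their surface phenotype, so mature cDC1 are hard to tell from other migratory DCs by XCR1 or CLEC9A. OX40L is a costimulatory ligand that DCs show to T cells.

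Filtering on 500 or more detected genes and no more than 10% mitochondrial UMIs (unique transcript counts) left 5636 of 6316 barcodes in the MC903 capture and 8422 of 9520 in the untreated capture. A retained barcode had a median of 9219 UMIs in the MC903 capture and 2622 in the untreated capture, and 21 kept barcode sequences occurred in both. A barcode was assigned when at least 80% of at least 50 hashtag UMIs came from 1 hashtag, which gave 1700 MC903 BFP+, 3762 MC903 BFP-, 584 untreated BFP+ and 5624 untreated BFP- barcodes. Barcodes with mixed hashtags, 167 in the MC903 capture and 1982 in the untreated capture, were left out of the populations. Calls made with HTODemux, an alternative, gave 1798 MC903 BFP+, 2542 MC903 BFP-, 2417 untreated BFP+ and 907 untreated BFP- barcodes, with the BFP transcript at 61.5 CPM in untreated BFP+ and 2.36 CPM in untreated BFP- barcodes, so the values of the untreated populations rest on the call. The BFP transcript stood at 98.7 CPM (UMIs of a gene scaled to a common total) in MC903 BFP+ and 9.55 CPM in MC903 BFP- barcodes, and at 73.1 CPM in untreated BFP+ and 6.42 CPM in untreated BFP- barcodes. Barcodes with at least 3 UMIs of B or T cell genes made up 15.2% of kept MC903 and 17.1% of kept untreated barcodes, despite the B220- gate.

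The name mature cDC1 was checked against fixed markers. Ccr7, the maturation and migration receptor, was at 2486 CPM in MC903 BFP+, 2478 CPM in MC903 BFP-, 2480 CPM in untreated BFP+ and 2210 CPM in untreated BFP- barcodes; these levels lay within 1.5-fold of each other. Xcr1 stood at 0.0578 CPM in MC903 BFP+ and 2.09 CPM in MC903 BFP- barcodes, and at 14.0 CPM in untreated BFP+ and 8.15 CPM in untreated BFP- barcodes. Clec9a was at 0 in MC903 BFP+ barcodes and at most 5.13 CPM elsewhere. Of a list of 17 cDC1 genes, 5 had at least 20 CPM on either side in the MC903 capture and 7 in the untreated capture. Their median log2 ratio, BFP+ over BFP-, was -0.05 and -0.12, so as a set they were not scarce in BFP+ barcodes. For 18 maturation genes the median was -0.09 and -0.0006. With the defining cDC1 surface markers this scarce, the 7 genes are called members here and not cDC1 markers.

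Laptm4b, Apol10b and Smagp lie on mouse chromosome 15 (GRCm38, GENCODE vM21) but not next to each other, Laptm4b at chr15:34238028-34284302, Apol10b at chr15:77583819-77596125 and Smagp at chr15:100621339-100636940. Asprv1 lies at chr6:86628164-86629710, Dnase1l3 at chr14:7964533-7994573, Gclc at chr9:77754535-77794485 and Tm4sf5 at chr11:70505244-70511178. All are protein-coding.

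RefSeq promoter windows (GRCm38.p6, 250 bases before to 50 after the start) matched 4 of the 7 members, Asprv1, Tm4sf5, Apol10b and Smagp, the last with 2 windows; no window was used for Laptm4b, Dnase1l3 and Gclc. Because the members were set beside Irf8, the windows were searched on both strands for an interferon-response-like motif (GAAA, 2 bases of any kind, GAAA), an ETS-IRF composite (GGAA, 2 bases of any kind, GAAA), an AP-1 site (TGANTCA) and an antioxidant-response-like motif (TGACNNNGC). The first was found in 1 of the 5 windows, that of Apol10b, beginning at base 247 on the opposite strand and so lying across the annotated start, and in 3.44% of 32851 windows of all genes. A Smagp window held the composite at base 204, against 2.72% of all windows, and the other held the antioxidant-response-like motif at base 153, against 12.4%. None of the 5 held the AP-1 letters, which 7.81% of all windows do. The Apol10b window (chr15:77596076-77596375, minus strand) is shown with its match in capitals, and that of Asprv1 (chr6:86627924-86628223, plus strand), the most unevenly held member, as one with no match to any of the 4 motifs.
Apol10b: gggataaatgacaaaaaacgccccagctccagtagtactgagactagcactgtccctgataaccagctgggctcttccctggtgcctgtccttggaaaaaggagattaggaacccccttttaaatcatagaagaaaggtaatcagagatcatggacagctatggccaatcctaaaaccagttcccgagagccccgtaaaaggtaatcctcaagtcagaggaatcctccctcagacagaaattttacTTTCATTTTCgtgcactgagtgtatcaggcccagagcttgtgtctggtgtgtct
Asprv1: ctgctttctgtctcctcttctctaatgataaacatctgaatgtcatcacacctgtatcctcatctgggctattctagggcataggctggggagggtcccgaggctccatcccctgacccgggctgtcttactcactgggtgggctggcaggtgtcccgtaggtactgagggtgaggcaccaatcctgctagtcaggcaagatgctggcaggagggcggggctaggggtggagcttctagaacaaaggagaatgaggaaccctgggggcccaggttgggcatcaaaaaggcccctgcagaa

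All 7 members were lower in BFP+ than in BFP- barcodes by at least 1.5-fold in both captures. That contrast chose them. Of all genes with at least 20 CPM on either side, 1.35% were that much lower in BFP+ barcodes of the MC903 capture and 2.96% in the untreated capture, and the median gene was at -0.02 and -0.01 (log2). Values are CPM of UMIs summed over a population, with exact 95% Poisson intervals that cover counting error only and not the spread between cells, pools or mice.

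**Figure D1:**
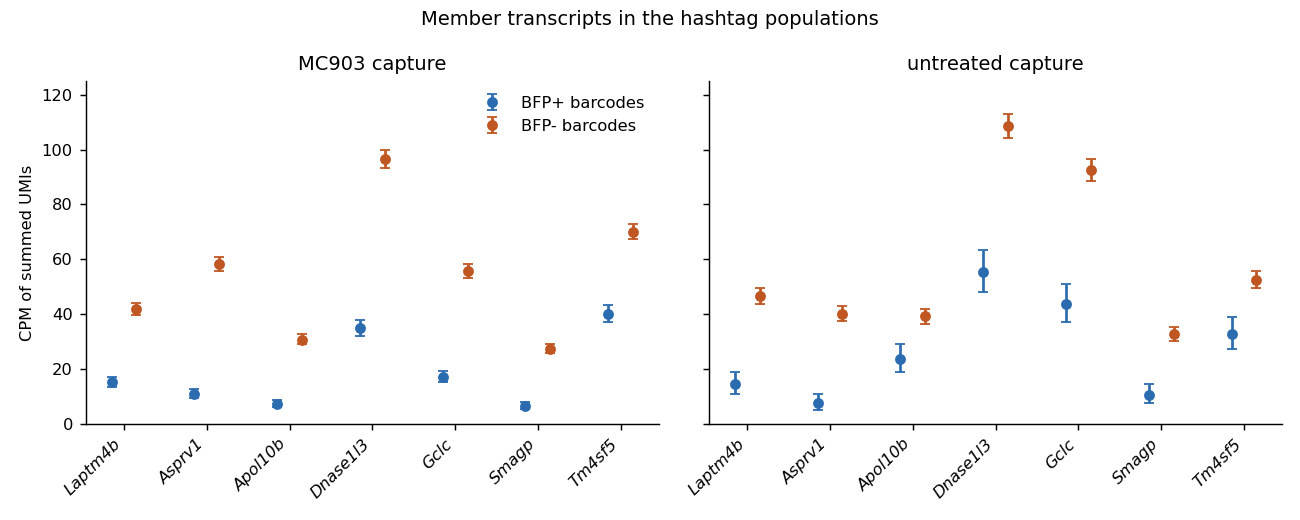
Level of each member (CPM of summed UMIs, linear axis) in BFP+ and BFP- barcodes of the MC903 and untreated captures; points are pools of 1 and bars exact 95% Poisson intervals for counting error. BFP+ points lie below the BFP- points for all 7 genes in both captures.

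Asprv1, an aspartic protease known from the outer epidermis where it processes filaggrin, had the lowest reporter ratio with these hashtag calls. It stood at 11.0 CPM in MC903 BFP+ against 58.2 CPM in MC903 BFP- barcodes, and at 7.55 CPM in untreated BFP+ against 40.1 CPM in untreated BFP- barcodes, a log2 ratio of -2.41 in each capture. With HTODemux calls its ratio was -2.45 in the MC903 capture and -1.39 in the untreated capture, where Laptm4b was at -1.496. Its UMIs were also the most unevenly held: the 1% of barcodes with the most held 51.3% of them in the MC903 capture and 47.5% in the untreated capture, with up to 95 and 21 UMIs in 1 barcode. For the other 6 members that share was 23.0 to 32.8%.

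Laptm4b, a lysosomal membrane protein, stood at 15.2 CPM in MC903 BFP+ against 41.9 CPM in MC903 BFP- barcodes (log2 -1.46), and at 14.6 against 46.5 CPM in untreated BFP+ and BFP- barcodes (-1.68). Smagp, a small transmembrane glycoprotein of cell contacts, was among the least abundant members, with 6.47 CPM in MC903 BFP+ and 27.4 CPM in MC903 BFP- barcodes (-2.08), and 10.5 CPM in untreated BFP+ and 32.7 CPM in untreated BFP- barcodes (-1.64). The reporter ratios of both genes lay between -2.08 and -1.46.

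Apol10b, of the apolipoprotein L family, was at 7.34 CPM in MC903 BFP+ against 30.7 CPM in MC903 BFP- barcodes (-2.06), but at 23.5 against 39.1 CPM in untreated BFP+ and BFP- barcodes (-0.74). Gclc, the catalytic subunit of the enzyme that starts glutathione synthesis, followed the same order, at 17.2 and 55.6 CPM in MC903 BFP+ and BFP- barcodes (-1.70), and 43.7 and 92.5 CPM in untreated BFP+ and BFP- barcodes (-1.08). Dnase1l3, a secreted endonuclease that digests DNA from dead cells, was the most abundant member in BFP- barcodes: 34.8 CPM in MC903 BFP+ and 96.5 CPM in MC903 BFP- (-1.47), and 55.3 CPM in untreated BFP+ and 108.5 CPM in untreated BFP- (-0.97). For each of these 3 the ratio lay further from 0 in the MC903 capture than in the untreated capture.

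Tm4sf5, of the L6 tetraspan family of membrane proteins, had the smallest ratio. It was at 40.0 CPM in MC903 BFP+ and 70.1 CPM in MC903 BFP- barcodes (-0.81), and at 32.6 CPM in untreated BFP+ and 52.5 CPM in untreated BFP- barcodes (-0.69). In the untreated capture, BFP- barcodes also held far more neutrophil transcripts (17.3 CPM over the list of 8 genes in BFP+ and 215 CPM in BFP-, with Ly6g, Mmp8 and Ngp at 0 in BFP+), while in the MC903 capture the list stood at 37.6 CPM in BFP+ and 7.88 CPM in BFP-. Without barcodes that held at least 5 such UMIs, all 7 members were still at least 1.5-fold lower in BFP+ barcodes of both captures.

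The other change across groups was between MC903 and untreated barcodes of one reporter state. Among BFP+ barcodes, 4 members had at least 20 CPM on either side and 3 of them were at least 1.5-fold lower in the MC903 capture, where 5.43% of all genes were lower by as much and 8.28% were apart in either direction: Apol10b (log2 -1.68), Gclc (-1.35) and Dnase1l3 (-0.67). With TMM scaling the count was 2, with Dnase1l3 at -0.54. The monocyte and macrophage list summed to 246 CPM in MC903 BFP+ and 609 CPM in untreated BFP+ barcodes, with 4 of its 4 measured genes at least 1.5-fold lower, and the T cell list to 260 and 503 CPM, with 8 of 9 lower; their part in the result was not tested. Tm4sf5 was at 0.29, and at -0.14 with HTODemux calls, and Laptm4b, Asprv1 and Smagp were under 20 CPM in both. Among BFP- barcodes only Gclc passed that fold (-0.73), 1 of 7, with 5.9% of all genes lower by as much and 10.2% apart in either direction; Asprv1 (0.54) and Tm4sf5 (0.42) were higher in the MC903 capture without passing it.

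At equal depth the reporter difference was one of detection too. Each barcode was thinned at random to 2000 UMIs, which left out 101 MC903 and 1752 untreated barcodes with fewer. At least 1 member was detected in 18.9% of 1674 MC903 BFP+ and 33.4% of 3691 MC903 BFP- barcodes, and in 23.0% of 521 untreated BFP+ and 43.5% of 4502 untreated BFP- barcodes. At least 2 members were detected in 2.15% of MC903 BFP+ (exact 95% interval 1.51 to 2.96) and 9.78% of MC903 BFP- barcodes (8.84 to 10.8), and in 3.84% of untreated BFP+ (2.36 to 5.87) and 13.7% of untreated BFP- barcodes (12.7 to 14.8). At least 4 occurred in 2 of 1674 MC903 BFP+ and 54 of 3691 MC903 BFP- barcodes, and in 0 of 521 untreated BFP+ and 28 of 4502 untreated BFP- barcodes. The exact 95% interval for 0 of 521 reaches 0.706%.

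**Figure D2:**
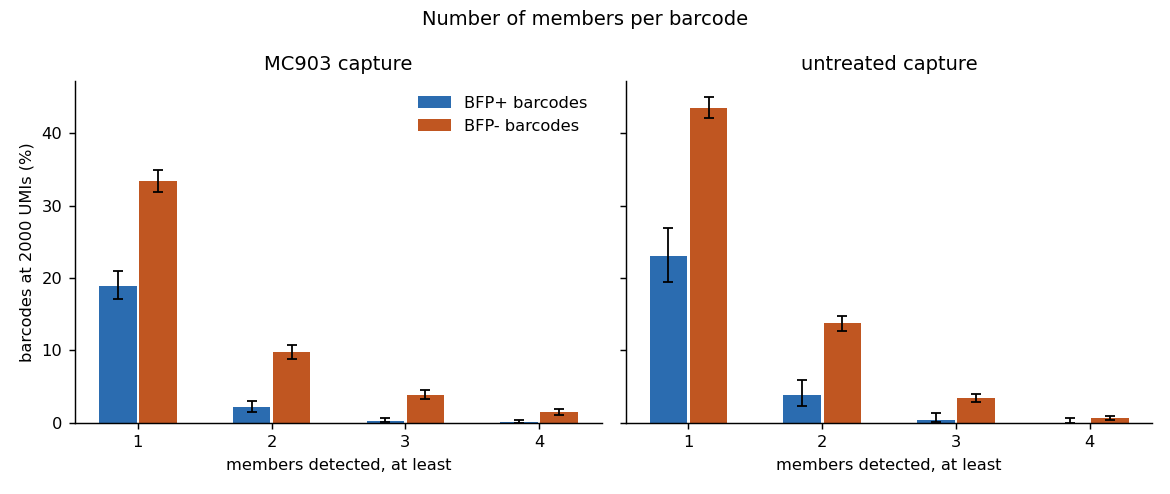
Share of barcodes (%), thinned to 2000 UMIs, with at least 1, 2, 3 or 4 of the 7 members, in BFP+ and BFP- barcodes of each capture; bars are shares with exact 95% binomial intervals for counting error. At least 2 members were found in 2.15% of MC903 BFP+ and 9.78% of MC903 BFP- barcodes.

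Over all kept barcodes of a capture, and within BFP- barcodes, at least 2 members were detected more often where Irf8 had UMIs than at 0. The share of barcodes with at least 2 members was 4.94% at 0 Irf8 UMIs, 9.77% at 1, 15.2% at 2 to 3 and 15.5% at 4 or more in the MC903 capture, where these levels held 3702, 1034, 618 and 181 barcodes. In the untreated capture it was 9.76, 13.0, 17.3 and 28.9% over 4355, 1546, 672 and 97 barcodes. The thinning draw itself moved the highest level most: over 6 draws it ranged from 15.5 to 23.3% in the MC903 capture and from 23.2 to 29.5% in the untreated capture, against 4.94 to 5.68% and 9.20 to 9.76% at 0 Irf8 UMIs. At 2 to 3 Irf8 UMIs the ranges were 12.6 to 15.2% and 16.1 to 18.3%. In the MC903 capture the draw shown was the highest of the 6 at 2 to 3 and the lowest at 4 or more. Draw ranges within a population were not computed. Within MC903 BFP- barcodes the shares were 6.66, 12.6, 18.7 and 17.7%, and within untreated BFP- barcodes 11.6, 14.8, 20.04 and 33.3%. Within BFP+ barcodes the shares at the lower 3 levels were 1.95, 2.86 and 1.504% in MC903 and 3.70, 3.33 and 4.26% in untreated barcodes, with overlapping intervals, and the top level held 2 of 31 MC903 and 1 of 6 untreated barcodes with at least 2 members. B cell barcodes were 6.05, 11.4, 10.5 and 2.21% of the MC903 levels and 5.26, 6.99, 4.76 and 4.12% of the untreated levels, so B cells, which also use Irf8, made up more of the middle levels than of the top one. Without lymphocyte barcodes the share at 4 or more and at 0 Irf8 UMIs was 16.1 and 5.71% in the MC903 capture, and 31.8 and 10.7% in the untreated capture.

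**Figure D3:**
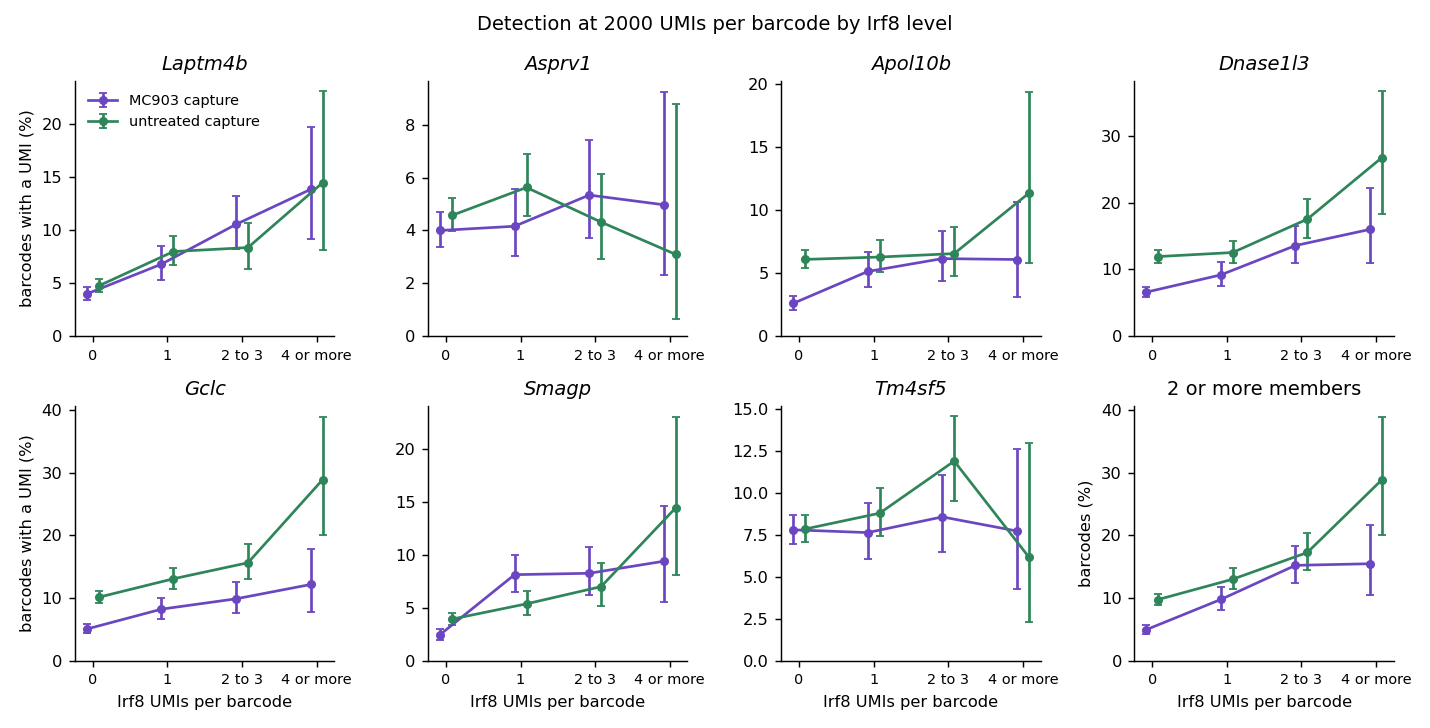
Share of barcodes (%), thinned to 2000 UMIs, with a UMI of each member, and with at least 2 members, by number of Irf8 UMIs per barcode, in the MC903 and untreated captures; bars are exact 95% binomial intervals for counting error. Laptm4b, Dnase1l3, Gclc and Smagp are higher at each step of Irf8 in both captures. The intervals of Asprv1, Apol10b and Tm4sf5 at 0 and at 4 or more Irf8 UMIs overlap in both captures.

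Barcodes with at least 2 Irf8 UMIs were then set against those with 0, with members counted at full depth. In the MC903 capture 7 of 7 members were at least 1.5-fold higher at high Irf8, and in the untreated capture 5 of 7, where 4.2% and 1.89% of all genes were that much higher. These counts ran from 6 to 7 and from 4 to 6 over 6 draws of the thinning. Smagp was at 42.4 CPM at high Irf8 and 11.5 CPM at 0 in the MC903 capture (log2 1.88), and at 54.7 and 21.3 CPM in the untreated capture (1.36). Laptm4b was at 70.3 and 20.6 CPM (1.77), and at 64.1 and 31.7 CPM (1.02). Both were thus more abundant at high Irf8 in each capture, as were Gclc (1.68 and 1.09) and Dnase1l3 (1.27 and 0.96). Over 6 draws of the thinning these 4 ranged from 0.70 (Dnase1l3, untreated) to 2.06 (Smagp, MC903), above 1.5-fold in each.

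The remaining 3 had ratios of 0.65 or less in the untreated capture. Apol10b stood at 1.33 in the MC903 capture and 0.41 in the untreated capture, and over the draws from 1.33 to 1.503 in MC903 barcodes and from 0.34 to 0.61 in untreated barcodes. Asprv1, at 0.80 and 0.49, ranged from -0.09 to 0.80 in MC903 barcodes and from 0.12 to 0.78 in untreated barcodes. The MC903 barcode with 95 Asprv1 UMIs was in neither population, whose maxima were 9 (BFP+) and 43 (BFP-). At 2 to 3 Irf8 UMIs, MC903 barcodes held 427 Asprv1 UMIs, with 16 in BFP+ and 313 in BFP- barcodes. The ratio without that 1 barcode was not computed. Tm4sf5, at 0.74 and 0.65, ranged from 0.74 to 0.83 in MC903 barcodes and from 0.03 to 0.65 in untreated barcodes. Irf8 itself was lower in BFP+ barcodes, at 228 CPM in MC903 BFP+ and 365 CPM in MC903 BFP- barcodes, and 202 CPM in untreated BFP+ and 302 CPM in untreated BFP- barcodes.

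In the MC903 capture the reporter difference was also present among barcodes grouped by their Irf8 UMIs at 2000 UMIs. These counts are sparse, with 3702 of 5535 MC903 barcodes at 0, so barcodes of 1 group can still differ in Irf8 level. The median log2 ratio of the 7 members, BFP+ over BFP-, was -1.48 at 0 Irf8 UMIs, -1.44 at 1 and -1.97 at 2 or more. At 2 or more, with 164 BFP+ and 617 BFP- barcodes, the member ratios ran from -3.10 to -1.28. In the untreated capture the median was -1.48, -1.18 and -0.86, with only 53 BFP+ barcodes at 2 or more Irf8 UMIs. There the ratios ran from at most -2.72 for Asprv1, with 0 UMIs in BFP+ barcodes, to 0.20 for Dnase1l3. Dnase1l3 was at 193 CPM in BFP+ against 168 CPM in BFP- barcodes. Its interval (-0.18 to 0.56) and that of Apol10b (-1.49 to 0.28) included 0. The members were chosen on the reporter contrast, and other genes were not compared within Irf8 levels. Over 6 draws the untreated median at 2 or more Irf8 UMIs ran from -1.60 to -0.23, so it is loose. Dnase1l3 there ran from 0.02 to 0.73, above 0 in each draw.

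Members tended to be detected in the same barcodes. Thinned to 2000 UMIs, 153 MC903 barcodes held at least 3 members where 29.6 would if each member were detected independently at its own share, 5.16 times as many (4.39 to 6.04). In the untreated capture 175 held at least 3 where 82.5 would, 2.12 times as many (1.82 to 2.46). At least 4 occurred in 57 MC903 barcodes against 1.69 computed, and in 29 untreated barcodes against 6.27. For at least 2 members the ratio was smaller, 1.30 and 1.19 (406 and 770 barcodes), and at 4000 UMIs per barcode it came to 1.07 and 1.02, where that for at least 3 was 2.66 and 1.67.

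All 21 pairs were found together more often than independence gives in both captures, with a median ratio of 2.54 (1.27 to 3.84) in the MC903 capture and 1.5 (1.13 to 1.86) in the untreated capture. The interval lay above 1 for 19 pairs in the MC903 capture and 17 in the untreated capture. Over 6 draws 20 or 21 pairs were above 1 in each capture. Lymphocyte barcodes were included, and pair ratios without them were not computed. Within untreated BFP- barcodes Asprv1 with Smagp was at 0.93 (0.50 to 1.59). Within untreated barcodes at 0 Irf8 UMIs Smagp with Tm4sf5 was at 0.97 (0.52 to 1.65). Each was the only pair below 1 in its group, but some other groups held more. Asprv1 with Gclc was at 0.85 (0.18 to 2.47) in MC903 barcodes at 1 Irf8 UMI. Apol10b with Gclc was at 0.58 (0.16 to 1.48) in untreated barcodes at 2 to 3 Irf8 UMIs. Dnase1l3 with Gclc was at 0.46 (0.01 to 2.56) in MC903 BFP+ barcodes. The lowest pair in MC903 BFP- barcodes, Asprv1 with Gclc, was at 1.18 (0.70 to 1.86). Asprv1 with Apol10b (3.84), Laptm4b with Dnase1l3 (3.83), Laptm4b with Apol10b (3.64) and Apol10b with Dnase1l3 (3.40) led in the MC903 capture. Dnase1l3 was detected in 31.3% of MC903 barcodes with Laptm4b and 6.81% of those without, and in 21.8% and 12.3% of untreated barcodes.

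**Figure D4:**
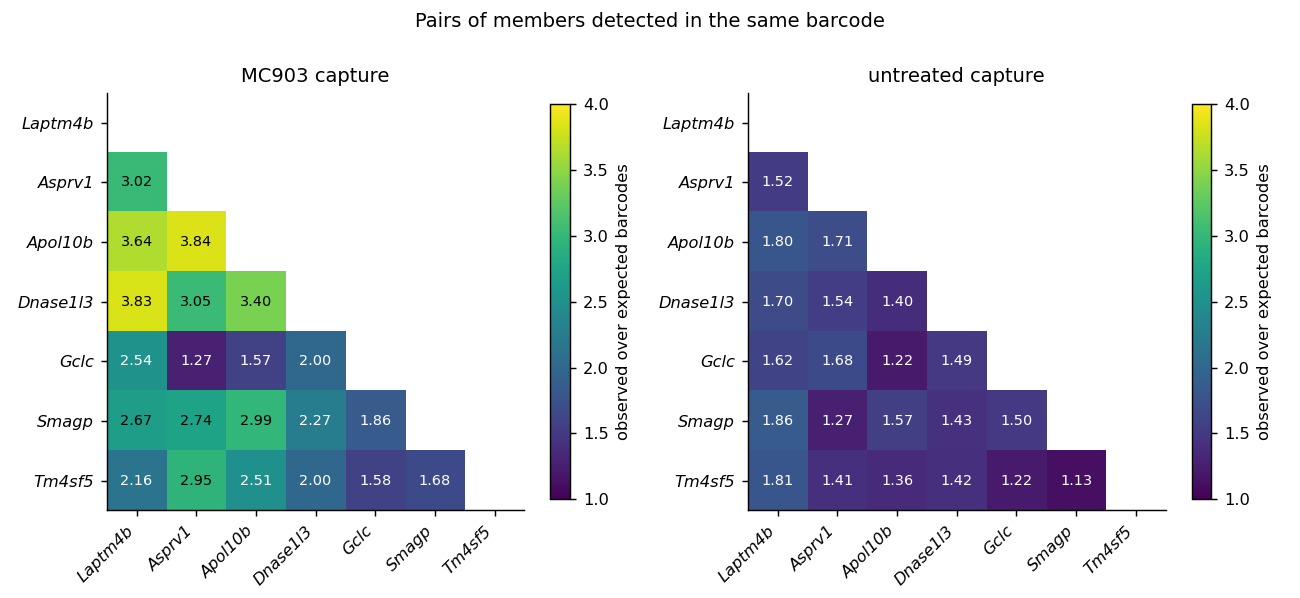
Observed over expected number of barcodes with both members of each pair, at 2000 UMIs per barcode, in the MC903 and untreated captures; 1 is the value for independent detection. Pairs among Laptm4b, Asprv1, Apol10b and Dnase1l3 lead in the MC903 capture, at 3.02 to 3.84, and the untreated values run from 1.13 to 1.86.

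Gclc was the least tied member in the MC903 capture (median of its 6 pairs 1.72, with Asprv1 at 1.27), and Tm4sf5 in the untreated capture (1.39, with Smagp at 1.13). Laptm4b led in the untreated capture at 1.75. Within barcodes with 0 Irf8 UMIs, at least 3 members still occurred 5.73 times as often as computed in the MC903 capture and 1.90 times in the untreated capture, and within BFP- barcodes 4.17 and 1.99 times. Within BFP+ barcodes at least 3 were seen in 4 MC903 and 2 untreated barcodes, with ratios of 2.98 (exact 95% interval 0.812 to 7.61) and 2.41 (0.292 to 8.66) that both include 1. At least 4 were seen in 2 MC903 BFP+ barcodes, against 0.0361 computed (ratio 55.4, interval 6.71 to 199.7), and Laptm4b with Dnase1l3 had a ratio of 2.81 (1.03 to 6.10) there.

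Other genes of these barcodes were read from those with at least 2 members against those with 0 (406 against 3938 MC903 and 770 against 4004 untreated barcodes). Mpeg1, which encodes the pore-forming protein perforin-2, led: 80.05 against 8.13 CPM in the MC903 capture (log2 3.30, 2.78 to 3.82) and 84.4 against 25.8 CPM in the untreated capture (1.71, 1.38 to 2.03). Zmynd15 was at 1086 against 217 CPM (2.33) and 742 against 356 CPM (1.06). Aif1, the calcium-binding protein IBA1, was at 2.81 and 0.98, and Il12b, the p40 chain of interleukin-12, at 2.19 and 1.11. The rule also chose Bcl2l14, a BCL2 relative (1.85 and 1.60), Pygl, which breaks down glycogen (1.77 and 1.09), Epsti1, known as interferon-induced (1.90 and 1.03), Txndc17 (1.74 and 1.03), the chemokine Ccl5 (1.45 and 1.02), Arc (1.61 and 0.97) and Plaat3 (1.63 and 0.97).

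**Figure D5:**
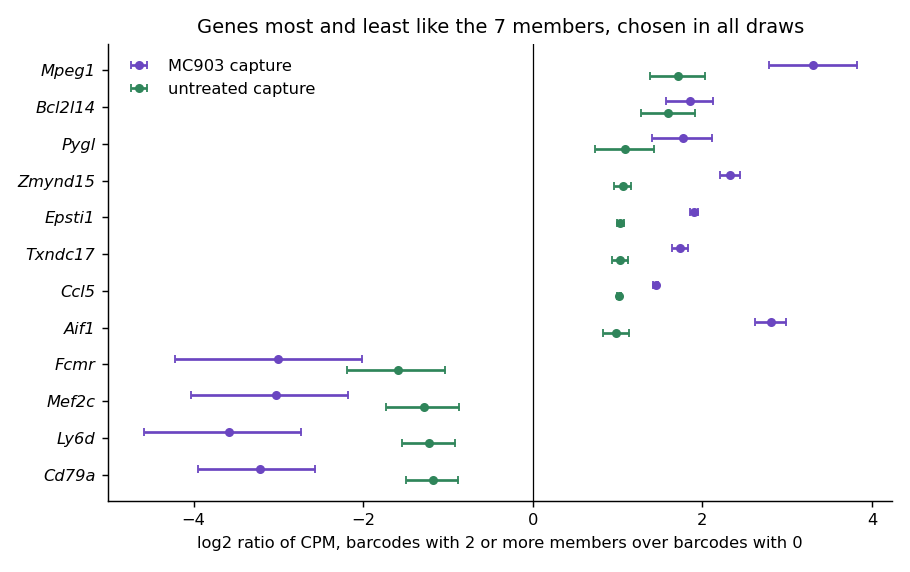
Log2 ratio of CPM in barcodes with 2 or more members over barcodes with 0 members, thinned to 2000 UMIs, for the 8 most and 4 least member-like genes that were chosen in all 6 draws, in the MC903 and untreated captures; bars are exact 95% intervals for counting error. The 8 genes above lie between 0.98 and 3.30 and the 4 below (Fcmr, Mef2c, Ly6d and Cd79a) between -3.58 and -1.18.

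Lymphocyte barcodes were 2.96% of MC903 barcodes with at least 2 members and 17.7% of those with 0, and 10.9% and 20.1% of untreated ones. Without them Mpeg1 was at 3.20 and 1.54, Zmynd15 at 2.11 and 0.97, and Aif1 at 2.61 and 0.90. The 8 lowest genes (Fcmr, Ptprcap, Mef2c, Ly6d, Cd79a, Ms4a4b, Ebf1 and Gimap6) moved more: Cd79a, a B cell receptor chain, stood at 1.82 in the MC903 capture and -0.06 in the untreated capture. Over 6 draws 8 of the 12 higher genes, Mpeg1, Bcl2l14, Pygl, Zmynd15, Epsti1, Txndc17, Ccl5 and Aif1, were chosen each time, whereas Arc was chosen in 1 and Il12b in 3. Barcodes with at least 2 members also held fewer neutrophil transcripts in the untreated capture, 3.25 against 221 CPM over the list.

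Of the cDC1 list, 3 of 6 measured genes in the MC903 capture and 3 of 8 in the untreated capture were at least 1.5-fold higher with at least 2 members, and 0 were lower in either, where 12.6% and 2.75% of all genes were higher and 14.6% and 4.35% lower. Irf8 was at 590 against 269 CPM (log2 1.13) and 395 against 234 CPM (0.76), and Cadm1, an adhesion molecule of cDC1, at 2.20 and 1.15. Batf3, a cDC1 transcription factor, was at 0.42 and 0.07. Of 18 maturation genes 3 and 2 were higher, among them Il12b and Tnfrsf4 (1.96 and 0.72), and Ccl22 was lower in the MC903 capture (-1.22); Ccr7 was at 0.13 and 0.03. Of the list for type 2 conventional DCs 3 of 4 measured genes were lower in the MC903 capture and 2 of 7 in the untreated capture, with Sirpa at -1.07 and -0.74.

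Apol7c, the abundant relative of Apol10b, was at 2489 against 672 CPM (1.89) in the MC903 capture but 1982 against 1757 CPM (0.17) in the untreated capture, and it was lower in BFP+ barcodes of both (-1.76 and -0.96). Laptm5 and Laptm4a stayed within 1.5-fold (0.39 and 0.39, then 0.04 and 0.22), as did the 2 measured DNase genes. Of 13 measured glutathione and antioxidant genes 3 were higher in the MC903 capture, Txn1 (1.12), Keap1 (0.61) and Nfe2l2 (0.60), and 1 in the untreated capture, Txn1 (0.66). Gclm, the partner subunit of Gclc, was at 0.37 and 0.04.

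The cDC1 surface genes Xcr1 and Clec9a were rare. The few barcodes with an Xcr1 or Clec9a UMI, 12 in the MC903 capture and 81 in the untreated capture, held Dnase1l3 in 58.3% (7 of 12) and 42.0% (34 of 81), against 8.06% and 12.5% of the others. Asprv1 was in 3 of the 12 and 2 of the 81, against 4.16% and 4.80% of the others, and Gclc in 25.0% and 23.5%, against 6.37% and 11.5%. Among the 81, Laptm4b was in 7.41%, Smagp in 4.94%, Apol10b in 2.47% and Tm4sf5 in 4.94%, against 5.96, 4.72, 6.30 and 8.50% of the others. Among the 12, these were in 3, 2, 2 and 1. At least 2 members were in 41.7% of the 12 and 20.99% of the 81, against 7.26% and 11.4% of the others. Those barcodes had less Ccr7 than the rest, 1399 against 2482 CPM in the MC903 capture and 1399 against 2262 CPM in the untreated capture. Genes that went with Dnase1l3 under the same rule applied to it alone, a choice made after its values were seen, were Cxcl9, Mpeg1, C1qb, C1qa and Plbd1 (log2 1.55 to 3.39). Barcodes with Dnase1l3 held 1485 CPM of the monocyte and macrophage list, against 185 CPM without it, in the MC903 capture, and 912 against 429 CPM in the untreated capture. Barcodes with at least 2 members held 99.8 CPM of that list, against 195 CPM with 0, in the MC903 capture. In the untreated capture these values were 419 and 496 CPM. The part of monocytes and macrophages in the results was not tested.

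Smagp was found in B cells as well. Barcodes with at least 3 B cell UMIs and no Fscn1 held it in 9.12% (30 of 329) in the MC903 capture and 6.95% (13 of 187) in the untreated capture, against 4.18% and 4.69% of other barcodes. Other barcodes here had fewer than 3 UMIs of B cell genes, fewer than 3 of T cell genes and fewer than 5 of neutrophil genes. For Asprv1, Apol10b, Laptm4b and Tm4sf5 the MC903 B cell share was 0 of 329, which allows up to 0.912%, against 4.14 to 8.92% in barcodes without such transcripts. Gclc was in 4.26% of MC903 and 3.21% of untreated B barcodes, against 6.77% and 12.2%. Before thinning, MC903 B barcodes had a median of 3196 UMIs, against 9818 in other barcodes, and untreated ones 3426 against 2916.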

How the data were processed

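The authors deposited raw UMI counts for each barcode, hashtags included. Per the file headers they come from Cell Ranger 3.1.0, and per the submitters' processing notes from GRCm38. The members and lists were chosen with earlier results of these data known. UMIs were summed per population and scaled to CPM; a log2 ratio has an exact conditional Poisson interval, and a count of 0 a limit of 3 counts. Since each population is a single pool, no p-value was computed. Shares, Irf8 levels and shared detection used barcodes thinned to 2000 UMIs, with 1 draw fixed per barcode; the drawing was changed to that form, and 5 further draws added, after values were seen to move with the draw. Genes most like the members had at least 50 CPM on the higher side in both captures (mitochondrial, ribosomal, receptor, haemoglobin, sex-linked and unnamed gene models left out) and were ranked by the ratio nearer to 0 of the 2 captures, the 12 highest and 8 lowest being chosen, of which 1 is not reported here. No doublet caller was run. HTODemux (Seurat 5.3.0) and TMM (edgeR 4.0.16, R 4.3.3) served as alternatives. The main code used Python 3.11.15, numpy 2.4.6; the ratio, shared detection and thinning steps were tested on simulated data. Total UMIs were 57148072 (MC903) and 33525154 (untreated).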

Additional observations from a re-analysis of the deposited data

Results flagged for a closer look

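Laptm4b values had opposite signs between the captures in the 2 reporter states: the log2 ratio of MC903 over untreated was 0.0611 in BFP+ barcodes (15.2 against 14.6 CPM) and -0.15 in BFP- barcodes (41.9 against 46.5 CPM). The BFP+ interval, -0.37 to 0.51, includes 0, and with HTODemux calls both values were below 0 (-0.53 in BFP+ and -0.37 in BFP- barcodes). The difference was not tested, and the BFP+ level was under 20 CPM in both captures.

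Barcodes with mixed hashtags, which entered no population, held the BFP transcript at 48.5 CPM in the MC903 capture (167 barcodes) and 53.0 CPM in the untreated capture (1982 barcodes), against 9.55 and 6.42 CPM in BFP- barcodes of those captures. In them at least 2 members were detected in 5.42% of 166 MC903 and 8.02% of 1596 untreated barcodes at 2000 UMIs.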

How the results depend on the processing

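No paired analysis was possible because each population was 1 pool. The BFP+ over BFP- ratios were below 0 in all 98 member values under the alternatives (hashtag calls, TMM, at most 5% mitochondrial UMIs, without lymphocyte or neutrophil barcodes, thinning), from -2.88 to -0.30, and 96 were at least 1.5-fold lower; Tm4sf5 in the untreated capture was at -0.30 with HTODemux calls. Of 196 member values, 28 moved out of the main value's counting interval. With TMM 2 members, against 3, were lower in MC903 than untreated BFP+ barcodes. The count of members apart between MC903 and untreated BFP- barcodes was 2 with TMM and 3 at 5% mitochondrial UMIs, against 1. The share with at least 2 members at 4 or more Irf8 UMIs was 7.84% (MC903) and 13.6% (untreated) at 1000 UMIs and 29.3% and 39.7% at 4000, and 21.9, 21.7, 20.5, 23.3 and 18.3% in 5 further MC903 draws. Shared detection of at least 2 members was 1.90 (MC903) at 1000 UMIs, and 1.07 (MC903) and 1.02 (untreated) at 4000, where that of at least 3 was 2.66 and 1.67. Depth limits the BFP+ values at high Irf8, where the top level held 31 MC903 and 6 untreated barcodes.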
